A study of Mus musculus with 15 samples.

Results

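Peaks of the Polycomb repressive complex 1 (PRC1) were examined at Foxa1, Foxa2 and Sox17, which encode transcription factors of the endoderm. The members were all peaks that touched 3 windows of the mm9 build by at least 1 bp. The windows were 58.62 to 58.67 Mb of chromosome 12 for Foxa1, 147.84 to 147.90 Mb of chromosome 2 for Foxa2 and 4.47 to 4.51 Mb of chromosome 1 for Sox17. They were drawn around the genes and used no measured value. They held 41 of the 30692 peaks in 5 deposited lists, 13 at Foxa1, 19 at Foxa2 and 9 at Sox17. The 41 peaks comprised 4 of 4165 MES Mel18 peaks, 6 of 3679 MES Cbx2 peaks, 7 of 8641 MES Ring1b peaks, 13 of 7614 MES RYBP peaks and 11 of 6593 ESC Mel18 peaks.

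MES were early cardiac mesoderm precursors obtained with BMP4 from the mouse line E14Tg2A, and ESCs were the undifferentiated embryonic stem cells of that line, kept with LIF in 2i medium. Both states therefore came from 1 line, with no genetic change named for these libraries. Each list came from 1 ChIP-seq library, with 5 ug of antibody used per precipitation, and the Mel18 antibody lot was the same in MES and ESCs. With 1 library per list there was no replicate check and no test between lists, read depth was unknown, and lists of different depth or calling can differ in peak number and width. The label of MES could not be set against marker genes here, since the files hold no expression values, and the IgG and RNA-seq libraries were not analysed here.

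Foxa1 and Foxa2 are forkhead factors that can bind closed chromatin and open it, and both act in the formation of gut, liver and lung. Foxa2 is also made in the node and the floor plate. Sox17 is an HMG-box factor of the definitive endoderm and is also used in blood vessel and blood formation. Endoderm and mesoderm arise from neighbouring cells of the primitive streak, and such lineage genes are held silent by Polycomb complexes in cells that do not use them. Ring1b is the catalytic subunit of PRC1 and ubiquitinates histone H2A. Mel18 (Pcgf2) pairs with it in the core of the complex. Cbx2 carries a chromodomain that reads methylated histone H3 and belongs to canonical PRC1, whereas RYBP belongs to variant PRC1.

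Polycomb complexes in mammals lie mostly at stretches rich in the dinucleotide CG, so the promoters are shown to give the CG content of these genes. RefSeq promoters of build GRCm38.p6 were matched by symbol for 2 of the 3 genes, with 1 start for Foxa1 and 3 starts for Foxa2, all on the minus strand. The 250 bases before each start are printed 5′ to 3′ with every CG in capitals. The coordinates are of GRCm38.p6 and were not converted to mm9, so whether a given start lies under a peak was not determined.
Foxa1 promoter 1, chr12:57546112-57546361: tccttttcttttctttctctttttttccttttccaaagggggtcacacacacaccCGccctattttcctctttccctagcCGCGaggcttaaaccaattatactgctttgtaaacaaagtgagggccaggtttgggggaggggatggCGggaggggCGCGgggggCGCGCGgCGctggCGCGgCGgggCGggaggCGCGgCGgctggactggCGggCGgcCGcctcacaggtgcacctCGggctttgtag
Foxa2 promoter 1, chr2:148046970-148047219: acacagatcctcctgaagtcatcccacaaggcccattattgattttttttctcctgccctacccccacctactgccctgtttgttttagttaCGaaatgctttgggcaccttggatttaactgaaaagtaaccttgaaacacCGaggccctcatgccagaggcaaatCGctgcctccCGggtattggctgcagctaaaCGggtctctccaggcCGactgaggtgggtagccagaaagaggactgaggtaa
Foxa2 promoter 2, chr2:148045949-148046198: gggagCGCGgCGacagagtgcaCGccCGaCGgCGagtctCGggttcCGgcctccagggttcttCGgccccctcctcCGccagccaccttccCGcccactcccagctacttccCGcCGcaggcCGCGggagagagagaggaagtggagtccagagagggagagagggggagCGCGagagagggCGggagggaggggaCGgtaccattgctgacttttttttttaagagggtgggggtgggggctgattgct
Foxa2 promoter 3, chr2:148045465-148045714: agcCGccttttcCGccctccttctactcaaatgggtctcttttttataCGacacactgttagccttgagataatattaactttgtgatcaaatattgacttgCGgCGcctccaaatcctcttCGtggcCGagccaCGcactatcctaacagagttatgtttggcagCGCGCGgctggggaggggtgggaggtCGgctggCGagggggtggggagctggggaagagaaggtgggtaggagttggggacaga

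The Foxa1 promoter held 21 CG in 250 bases, a number reached by 16.3% of the 32851 promoters in the table. Of the Foxa2 starts, the second was the richest with 20 CG, reached by 17.9% of promoters. The third held 13 CG, reached by 31.5%, and the first held 6, which equals the median of all promoters and was reached by 50.4%. CG reads the same on both strands, so each count covers both, and 92.1% of all promoters held at least 1. The printed promoters thus ran from 3 that were above the median in CG to 1 at the median.

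All 5 lists had peaks at each of the 3 genes, and every ESC Mel18 base there was also under MES Mel18, Cbx2 and Ring1b peaks. This full cover was found at 3 of 3 loci, against 27.6% of the 1911 regions of the genome with peaks of all 5 lists (interval 25.6 to 29.6%). A region was a stretch of overlapping peaks from any of the lists, and 1911 of 12154 regions had peaks of all 5. Intervals of shares are exact Clopper-Pearson 95% intervals that cover counting only. Long regions more often had full cover. Among the 174 regions with at least 7.84 kb of ESC Mel18, the shortest cover of the 3 loci, 46.6% had it (interval 39.0 to 54.3%). Under MES Mel18 alone, 3 of 3 loci kept every ESC Mel18 base, against 53.9% of the 1911 regions and 71.8% of the 174 long ones.

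**Figure D1:**
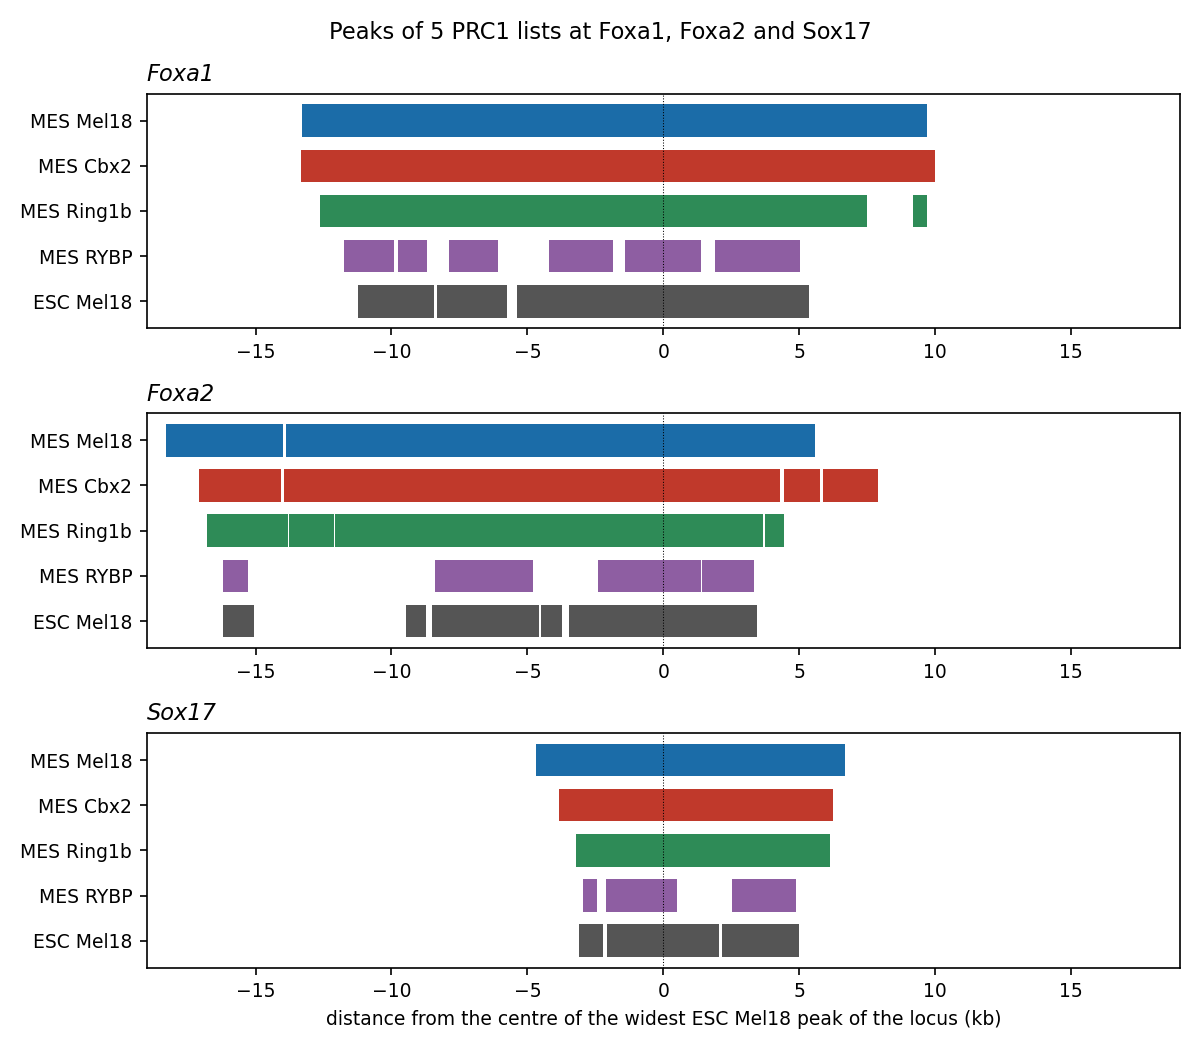
Peaks of the 5 lists at Foxa1, Foxa2 and Sox17, drawn to scale as bars along the distance in kb from the centre of the widest ESC Mel18 peak of each locus, with 1 row per list. MES Mel18, Cbx2 and Ring1b form long stretches that reach past ESC Mel18, while the 13 RYBP peaks are shorter and leave gaps.

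At Foxa1, MES Mel18 was a single peak of 23.0 kb (58633756 to 58656761 on chromosome 12), whereas ESC Mel18 was in 3 peaks that covered 16.1 kb. The ESC peaks had widths of 2791, 2606 and 10745 bp, and the widest (58641686 to 58652430) had the highest of their scores. The gaps between them were 81 and 363 bp, and the MES peak ran across both. The MES peak reached 2089 bp past the ESC peaks at the lower coordinate and 4331 bp past them at the higher. It was the 26th widest of the 4165 MES Mel18 peaks, and the widest ESC peak was the 40th of 6593.

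Cbx2, the chromodomain subunit, matched MES Mel18 closely at Foxa1. It had 1 peak of 23.3 kb (58633731 to 58657037), and the bases shared by Cbx2 and MES Mel18 made up 98.7% of those under either. Ring1b, the catalytic subunit, had a peak of 20.1 kb (58634442 to 58654569) and, after a gap of 1691 bp, one of 499 bp (58656261 to 58656759). The small Ring1b peak scored 55.1 and overlapped MES Mel18 and Cbx2 only. RYBP was in 6 peaks of 1078 to 3120 bp that covered 13.0 kb. The widest RYBP peak (58648980 to 58652099) scored 198, and the highest score of 687 belonged to its neighbour (58645650 to 58648438).

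At Foxa2, the locus with the most peaks, MES Mel18 had 2 peaks that covered 23.8 kb, against 5 peaks and 13.5 kb for ESC Mel18. The wider MES peak measured 19.5 kb (147858013 to 147877475 on chromosome 2) and the other 4314 bp (147853607 to 147857920). The ESC peaks fell into a lone peak of 1151 bp (147855698 to 147856848) and 4 peaks of 747, 3930, 755 and 6908 bp further along. The peaks of 3930 bp (147863390 to 147867319) and 6908 bp (147868442 to 147875349) both scored 3100. The stretch of 5589 bp between the lone peak and the peak of 747 bp (147856849 to 147862437) held no ESC Mel18 and no RYBP peak. In MES it was under Mel18 peaks for 98.4%, under Cbx2 peaks for 97.7% and under Ring1b peaks for 98.7% of its length. The fill of this gap and the flanks of 2091 and 2126 bp made up most of the added MES cover.

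Cbx2 covered 24.6 kb at Foxa2 in 4 peaks and Ring1b 21.1 kb in 4, and each had a single wide peak. The Cbx2 peak of 18.2 kb (147857949 to 147876183) and the Ring1b peak of 15.8 kb (147859811 to 147875572) overlapped the wider MES Mel18 peak. MES Mel18, Cbx2 and Ring1b each had a break in the same short stretch. The MES Mel18 and Cbx2 breaks overlapped in part, with 69.6% of the MES Mel18 break under Cbx2 peaks, and the Ring1b break lay apart from both. The break was 92 bp in MES Mel18 (147857921 to 147858012), 127 bp in Cbx2 (147857822 to 147857948) and 51 bp in Ring1b (147858078 to 147858128). The Ring1b break lay wholly under MES Mel18 and Cbx2 peaks, and Cbx2 and Ring1b had 3 breaks each at Foxa2. Read coverage at the breaks was not analysed here. The last Cbx2 peak, of 2041 bp (147877763 to 147879803), was the only one of the 41 peaks that overlapped no peak of another list. It scored 159, above 52.3% of Cbx2 peaks. RYBP had 4 peaks of 904 to 3808 bp that covered 10.2 kb, the widest (147869485 to 147873292) also being the highest in score, at 597.

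At Sox17, MES Mel18 was 1 peak of 11.3 kb (4478836 to 4490175 on chromosome 1), against 3 peaks and 7.84 kb for ESC Mel18. The ESC peaks measured 897, 4107 and 2838 bp, and the widest lay from 4481450 to 4485556. The gaps of 148 and 95 bp between them were under the MES peak. Cbx2 had 1 peak of 10.1 kb (4479674 to 4489753) and Ring1b 1 of 9.33 kb (4480305 to 4489630). Their ends were nested, since the Ring1b peak lay within the Cbx2 peak and the Cbx2 peak within the MES Mel18 peak. RYBP had 3 peaks of 517, 2606 and 2344 bp that covered 5.47 kb. The widest RYBP peak (4481404 to 4484009) had the highest score, 407, and lay mostly on the widest ESC Mel18 peak.

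The score was the authors' own value for each peak, on a scale that was not stated, and it is used here only within a list. It piled up at 3100 in 4 of the 5 lists, so the top peaks of those lists could not be ranked. Peaks at or above 3100 numbered 3 of 4 for MES Mel18 at these loci, 1 per gene, against 8.98% of that list. For Cbx2 they were 3 of 6 against 9.05%, for Ring1b 3 of 7 against 3.43%, and for ESC Mel18 4 of 11 against 4.6%. Each gene therefore had a peak at this value in all 4 lists. RYBP had none at 3100 anywhere, and its highest-scoring peaks at Foxa1, Foxa2 and Sox17 lay above 96.9, 95.7 and 89.8% of its list. Its lowest-scoring members, 1 at Sox17 with 51.0 and 1 at Foxa2 with 51.1, were near the RYBP list's lowest score of 50.

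These genes held some of the wider peaks of the lists. Peaks of 10 kb or more made up 3 of the 4 MES Mel18 peaks against 4.11% of that list, 3 of 6 Cbx2 peaks against 5.65%, and 2 of 7 Ring1b peaks against 1.69%. They made up 0 of 13 RYBP peaks against 0.144% and 1 of 11 ESC Mel18 peaks against 0.713%. Among the 1911 regions with all 5 lists, the Foxa1 region had the 35th longest MES Mel18 cover and the 37th longest ESC Mel18 cover. The Foxa2 region ranked 30th in MES and 60th in ESCs, and the Sox17 region 168th in MES and 174th in ESCs. Foxa2 thus stood higher by MES than by ESC cover, while Foxa1 and Sox17 held similar places.

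**Figure D2:**
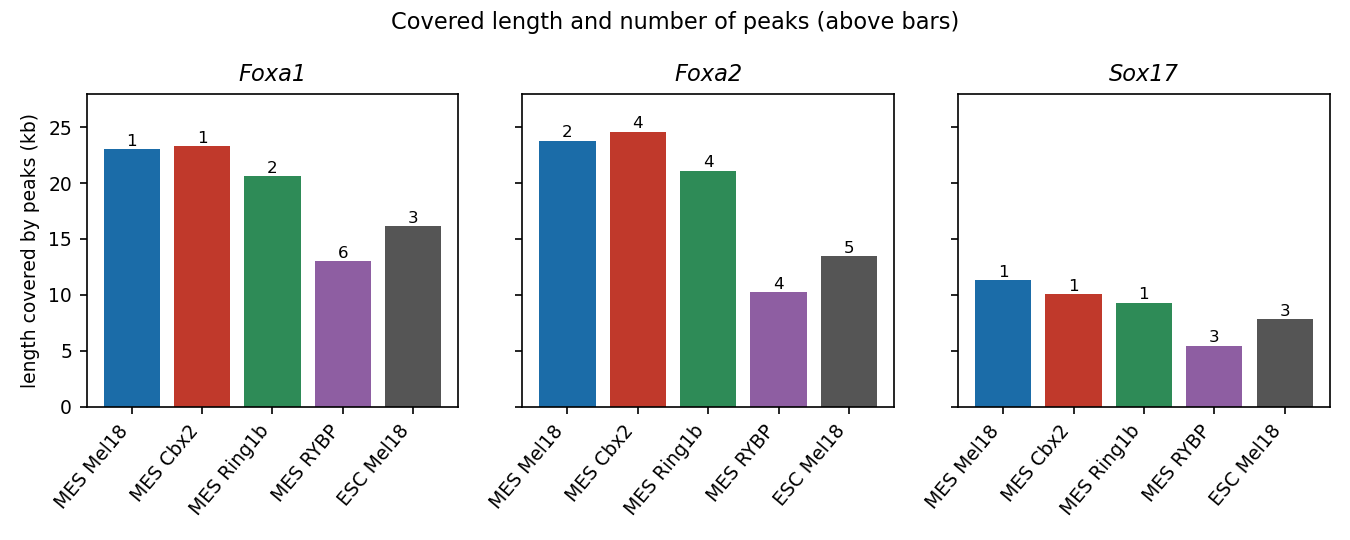
Length in kb covered by the peaks of each list (bars, from 0) at the 3 genes, with the number of peaks above each bar and 1 library per bar. RYBP has the shortest cover at each gene (13.0, 10.2 and 5.47 kb) and MES Mel18 has more than ESC Mel18 at all 3.

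The Mel18 lists of MES and ESCs were compared to see whether sites of the pluripotent state were kept in mesoderm precursors. No Mel18 peak inside the windows belonged to 1 state alone, but with windows widened by 20 kb 5 of 6 MES Mel18 peaks overlapped an ESC Mel18 peak. All 4 MES Mel18 peaks overlapped an ESC Mel18 peak, against 66.3% of the MES list (interval 64.8 to 67.7%). All 11 ESC Mel18 peaks overlapped a MES Mel18 peak, against 52.6% of the ESC list (interval 51.4 to 53.8%). Of the 4 MES peaks, 3 spanned 3 or more ESC peaks, which 3.22% of MES Mel18 peaks did. The 174 long regions had medians of 3 ESC Mel18 peaks and 1 MES Mel18 peak, so such numbers were not particular to these genes. The 11 ESC peaks are parts of 3 loci and were not independent.

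MES Mel18 covered 1.43 times the length of ESC Mel18 at Foxa1, 1.76 times at Foxa2 and 1.45 times at Sox17. The median of the 1911 regions with all 5 lists was 1.27, and 78.7% of them had the longer cover in MES. In the 174 long regions the median was 1.30, and 97.7% had the longer cover in MES, so the direction at 3 of 3 loci was that of nearly all long regions. The ratios of Foxa1, Foxa2 and Sox17 were above those of 63.9, 81.3 and 65.4% of the 1911 regions. Foxa2 had the highest of the 3 ratios under all settings tried, and the size of that ratio moved with them, between 1.70 and 1.98.

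**Figure D3:**
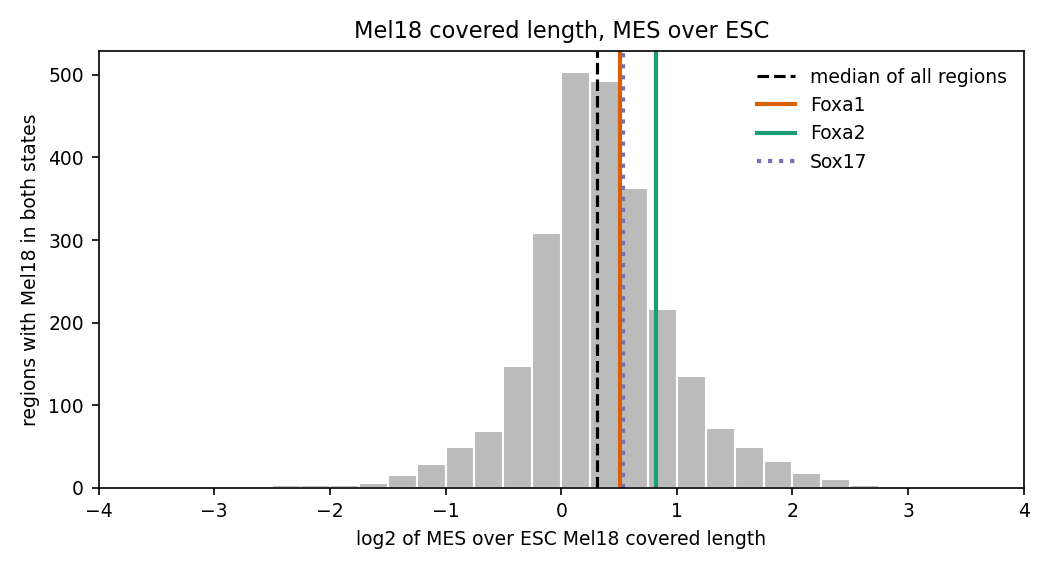
Histogram of the log2 of MES over ESC Mel18 covered length in the 2540 regions with Mel18 peaks in both states, in bins of 0.25, with vertical lines for the 3 genes and a dashed line for the median. Foxa1 and Sox17 lie just above the median of 1.24 times and Foxa2, at 1.76 times, lies further to the right, all within the bulk of the regions.

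The MES subunits were compared with MES Mel18 to see which forms of PRC1 lay at these genes. All 4 MES Mel18 peaks overlapped Cbx2, Ring1b and RYBP peaks, against 57.7% of the list (interval 56.2 to 59.2%). With the upper 50% by score, and with lists of equal length, 3 of the 4 did so. The 4314 bp peak at Foxa2 met 1 RYBP peak only, which scored 51.1. Cbx2 covered 1.01 times the length of MES Mel18 at Foxa1, 1.03 times at Foxa2 and 0.889 times at Sox17, against a median of 1.02 in long regions. The Foxa2 value counted the lone Cbx2 peak of 2041 bp, which lay outside the region with all 5 lists. Within that region Cbx2 covered 22.6 kb, less than the 23.8 kb of MES Mel18, and the median was taken over such regions. Ring1b covered 0.897, 0.887 and 0.822 times the length of MES Mel18 at the same genes, against a median of 0.943. RYBP covered 0.565, 0.431 and 0.482 times the length of MES Mel18, against a median of 0.576 in long regions and 0.700 in all 1911. The low RYBP cover was therefore shared with other long regions. Foxa2 and Sox17 lay below their median, and Foxa1 lay close to it. The Foxa1 value was 0.649 with peaks within 1 kb joined and 0.584 with windows widened by 20 kb, and the median was not recomputed under these settings.

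From the side of the subunits, all 7 Ring1b peaks overlapped a MES Mel18 peak, against 42.4% of the Ring1b list. Of the 6 Cbx2 peaks 5 did so, against 74.1%. All 13 RYBP peaks overlapped MES Mel18, against 45.9% of the RYBP list, and all 13 also overlapped Cbx2 (45.7%), Ring1b (76%) and ESC Mel18 (50.8%). The peaks of each list are parts of the same 3 loci and were not independent. Some peaks of the other lists had no RYBP. It was met by 4 of 7 Ring1b peaks, against 64.7% of that list, by 4 of 6 Cbx2 peaks, against 75%, and by 9 of 11 ESC Mel18 peaks, against 61.6%. The 2 ESC Mel18 peaks without RYBP were the small ones at Foxa2 (147862438 to 147863184 and 147867405 to 147868159).

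RYBP in MES shared less of its outline with MES Mel18 than with ESC Mel18 at 3 of 3 loci, as it did in 68.6% of the 1911 regions and 97.1% of the long ones. RYBP bases lay wholly under MES Mel18 peaks at Foxa1, Foxa2 and Sox17, and under ESC Mel18 peaks for 96.0, 100 and 99.2% of their length. The bases shared by RYBP and MES Mel18 made up 56.5, 43.1 and 48.2% of those under either, against 74.9, 75.9 and 68.7% for RYBP and ESC Mel18. With RYBP almost wholly inside both, the larger share with ESC Mel18 followed from its shorter cover and is not a separate result. The medians of long regions were 56.7% with MES Mel18 and 72.5% with ESC Mel18. The outer ends of RYBP were near those of ESC Mel18 at Foxa2, where they fell short by 9 and 114 bp, and at Sox17, where they fell short by 133 and 98 bp. The lower ends rested on single RYBP peaks that scored 51.1 at Foxa2 and 51.0 at Sox17, near the list's lowest score of 50. The next RYBP peaks began only at 147863485 at Foxa2 and 4481404 at Sox17. At Foxa1 RYBP reached 520 bp past ESC Mel18 on the lower side and stopped 331 bp before it on the higher. RYBP cover was shorter than ESC Mel18 cover at 3 of 3 loci, as it was in 67.5% of the 1911 regions and 94.8% of the long ones.

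MES Mel18 bases were then divided into those also under ESC Mel18 (kept) and those under MES Mel18 only (MES-only). Foxa1 had 6864 MES-only and 16142 kept bases, Foxa2 10286 and 13491, and Sox17 3498 and 7842. No ESC Mel18 base was lost at any of the 3. RYBP peaks covered 7.58% of MES-only bases and 77.3% of kept bases at Foxa1, 0% and 75.9% at Foxa2, and 1.32% and 69.1% at Sox17. In long regions the medians were 3.87% of MES-only bases and 75.9% of kept bases, so the contrast was that of long regions in general.

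Ring1b and Cbx2 peaks covered all kept bases at the 3 genes and different shares of the MES-only bases. Ring1b covered 65.3% of MES-only bases at Foxa1, 73.0% at Foxa2 and 42.4% at Sox17, and the median of long regions was 73.6%. Cbx2 covered 100% at Foxa1, 85.7% at Foxa2 and 64.0% at Sox17, with a median of 98.7% in long regions. Sox17 had the lowest share of the 3 for both subunits. Of all bases under any peak, those under all 5 lists made up 53.5% at Foxa1, 39.2% at Foxa2 and 47.8% at Sox17.

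**Figure D4:**
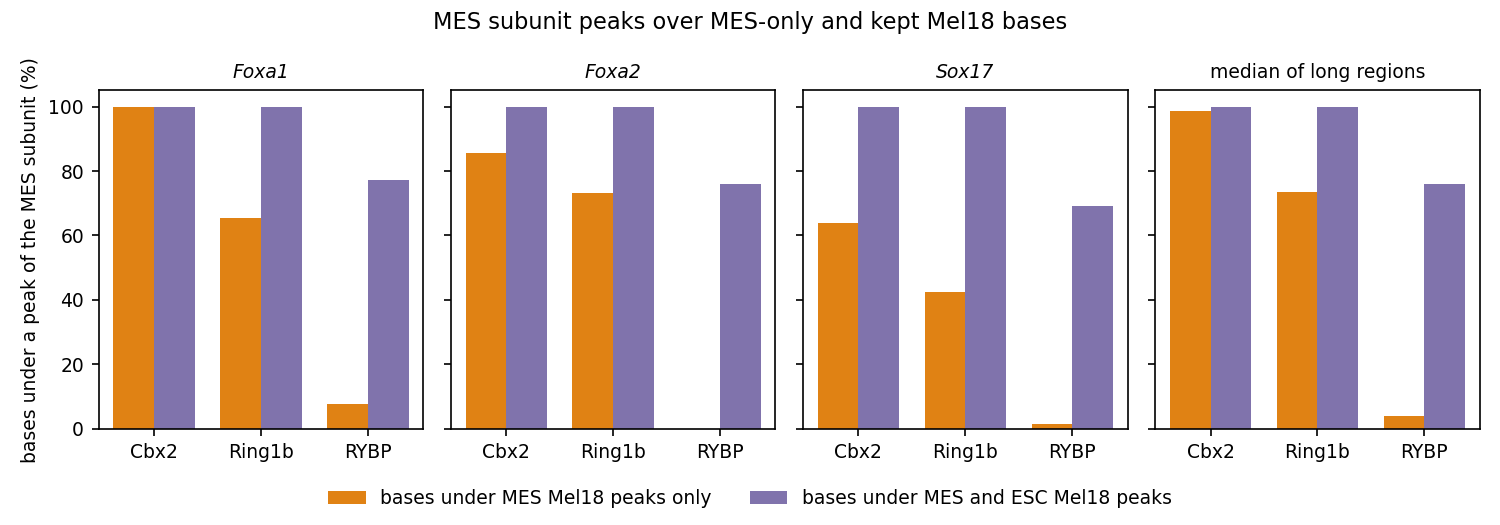
Share in % of MES Mel18 bases that also lay under Cbx2, Ring1b or RYBP peaks in MES, for bases under MES Mel18 peaks only (left bar of each pair) and for bases under MES and ESC Mel18 peaks (right bar), at the 3 genes and as the median of 174 long regions. Cbx2 and Ring1b reach 100% of the kept bases, and RYBP is at 0 to 7.58% of the MES-only bases.

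The next peak outside each of the 3 loci was nearer on the higher side, and distances at other regions were not analysed here. On the lower side, the next peak of any list was 302 kb away at Foxa1, 651 kb at Foxa2 and 816 kb at Sox17. On the higher side it was 17.6 kb away at Foxa1, 28.1 kb at Foxa2 and 71.1 kb at Sox17. The nearest one at Foxa1 was a Cbx2 peak of 1269 bp (58674653 to 58675921) that overlapped no peak of another list. Beyond it lay a small site with all 5 lists. That site included a MES Mel18 peak of 1535 bp (58676493 to 58678027) and an ESC Mel18 peak of 1464 bp (58676571 to 58678034). Just beyond the Foxa2 window lay a MES Mel18 peak of 605 bp (147907886 to 147908490) that overlapped no ESC Mel18 peak. By gene order in RefSeq GRCm38.p6, the neighbouring protein-coding genes were Mipol1 and Ttc6 for Foxa1, Pax1 and Sstr4 for Foxa2, and Rp1 and Mrpl15 for Sox17.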

How the data were processed

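The authors deposited 1 peak list per ChIP-seq library, with a score per peak whose scale was not stated. Peak names carry the tag of MACS, per the file headers and names, and build mm9, Bowtie and TopHat were named, without versions, per the submitters' processing notes. Caller settings, control, pooling and depth are not given in the sources used here. Peak starts are given counted from 1. Overlap meant at least 1 bp. Covered length was the sum of bases under peaks that touched a window. Genome-wide regions joined overlapping peaks of all 5 lists, and long regions, a class defined after the data were seen, had at least as much ESC Mel18 cover as Sox17.

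No mm9 annotation was used, so other endoderm regulators were not analysed here. The genes and lists were chosen with earlier results of these data known. Named with coordinates were the widest and the highest-scoring peak per list and gene and any peak without overlap in another list. Others, such as peaks without RYBP and those just outside the windows, were named after their values were seen. The alternatives were other overlap rules, the upper 50% by score, lists of equal length, joined peaks and other window edges. Values were computed in Python 3.11.15 with pandas 2.3.3, numpy 2.4.6, matplotlib 3.10.9 and, for intervals, scipy 1.17.1. Overlaps were checked with bedtools 2.31.1 on 20 ordered pairs of lists, with 0 differing peaks, and tested on simulated data, with 0 of 500 peaks called wrongly.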

Additional observations from a re-analysis of the deposited data

How the results depend on the processing

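No paired analysis was possible because there was a single library for every antibody and cell state. Of 106 values recomputed under the alternatives, 71 stayed the same, which for a count meant within 1.5 times and for a ratio the same 3 digits. Overlap at 50% of the shorter peak moved none. Every member peak lay wholly inside its window, so the setting that required this could move none. Its 20 values are among the 71 and say nothing about stability. Overlap rules do not bear on peak counts or covered lengths and were not applied to them. MES Mel18 covered more than ESC Mel18 at all 3 genes under all settings tried, and RYBP less than MES Mel18. With peaks within 1 kb joined there were 3 Cbx2, 4 Ring1b, 7 RYBP and 4 ESC Mel18 peaks, and all 4 of the last overlapped MES Mel18. That setting gave MES over ESC Mel18 ratios of 1.39 at Foxa1, 1.70 at Foxa2 and 1.40 at Sox17. Over MES Mel18 it gave 0.649 for RYBP at Foxa1, 1.05, 0.889 and 0.430 for Cbx2, Ring1b and RYBP at Foxa2, and 0.513 for RYBP at Sox17. With peak centres within 1 kb, 2 MES and 2 ESC Mel18 peaks were shared and 1 MES Mel18 peak had all 3 subunits. Wide peaks cut differently have distant centres. Windows widened by 20 kb gave 1.39 at Foxa1 and 1.81 at Foxa2 for MES over ESC Mel18. Over MES Mel18 they gave 1.06, 0.910 and 0.584 for Cbx2, Ring1b and RYBP at Foxa1 and 1.01, 0.865 and 0.420 at Foxa2. The upper 50% by score and lists of equal length both gave 1.98 for MES over ESC Mel18 at Foxa2, 0.875 for Ring1b at Foxa1, 0.857 for Ring1b and 0.393 for RYBP at Foxa2, and 0.437 for RYBP at Sox17. The upper 50% also gave 0.979 for Cbx2 at Foxa2, so whether Cbx2 or MES Mel18 covered more there depended on the setting. Both settings drop low-scoring peaks. Unknown depth limits all lengths.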
